A study of Rattus norvegicus with 6 samples.

Results

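The genes of calcium entry, calcium storage, calcium pumping and calcium-dependent signalling were followed in mesenchymal stem cells of rat nasal mucosa, with and without overexpression of neuropeptide S. The set holds 50 genes of 20653 in the deposited tables, matched by exact gene symbol, and all 50 had a row. Members were chosen by their function and on earlier results of the comparison described here. The differences between the groups in these 50 genes are therefore given as a description, and no p-value is printed for them. Adjusted p-values are given for a wider list of calcium-handling genes that are not members. That list was drawn up by function, but also with earlier results of these data known, so its p-values are not independent evidence either.

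Bulk RNA sequencing was done on 3 libraries of cells labelled EMSC and 3 libraries of cells labelled NPS-EMSC. Both groups carry the genotype label SD, are called primary cells of nasal mucosa, and come with no stated age, time in culture or treatment. NPS-EMSC are the cells that overexpress neuropeptide S, and the labels name neither the vector and promoter nor a control vector for EMSC, so effects of gene delivery and of the peptide cannot be told apart. Nothing says that the 3 libraries of a group came from separate cultures or animals, so the tests measure the spread between these libraries alone.

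Calcium acts as a signal because resting cells keep it low in the cytosol and high outside the cell and in the endoplasmic or sarcoplasmic reticulum. It enters through voltage-gated, store-operated and TRP channels, leaves the store through IP3 receptors and ryanodine receptors, and is returned by SERCA pumps to the store and by plasma membrane pumps and exchangers to the outside. Phospholamban and sarcolipin hold SERCA back, calsequestrin buffers calcium inside the store, junctophilins hold the store against the plasma membrane, and calmodulin-dependent kinase II and the NFAT factors read the cytosolic signal. In muscle these parts are concentrated in the junctions that couple excitation to contraction, while cells of connective tissue rely mostly on IP3 receptors and store-operated entry.

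The libraries held 39082245 to 40261205 counted reads. Nps, the overexpressed gene, had 0, 0 and 10 reads in the EMSC libraries and 77014 to 93566 in the NPS-EMSC libraries. Markers below were called at an adjusted p under 0.05. Of all 14505 genes tested, 29.7% were called higher and 29.5% lower in NPS-EMSC, so a call alone says little. A marker read almost only in a single group passed the count filter through that group. Of the 10 mesenchymal markers, 6 were called higher and 4 lower, with Nt5e 4.45-fold and Thy1 2.92-fold higher and Pdgfra 1.93-fold lower, and most of the sum came from Col1a1, Col1a2 and Vim, with a summed level of 22555 to 24654 in the EMSC libraries and 22762 to 23816 in the NPS-EMSC libraries, in CPM, which are counts scaled to library size. Of 10 smooth muscle markers, 8 were called higher and none lower (0) in NPS-EMSC, and their summed level was 1194 to 1337 CPM against 4220 to 4397 CPM. Of the 8 cardiac markers 2 passed the count filter, Actn2 and Tnnt2, both higher, and the list summed to 0.618 to 1.05 CPM against 2.30 to 3.37 CPM, with Nppa at 0 reads in NPS-EMSC. The 9 skeletal muscle markers summed to 353 to 384 CPM against 238 to 249 CPM, nearly all of it Myh1, with 2 called higher and 2 lower. The 7 leukocyte markers with a row summed to 54.7 to 68.1 CPM against 7.47 to 9.36 CPM, and 5 were called lower. Of 9 neuronal and 6 Schwann cell markers, 2 of each list passed the filter and were called lower, and the lists summed to 51.4 to 56.4 against 12.6 to 14.6 CPM and 29.0 to 30.9 against 6.27 to 7.29 CPM. The 5 endothelial markers with a row summed to 2.67 to 3.11 against 2.29 to 2.98 CPM with none of 3 tested called (0), and the 7 epithelial markers to 4.18 to 4.93 against 10.2 to 13.3 CPM with both tested members higher. In bulk RNA, fewer cells of a type and less RNA per cell cannot be told apart, and the part of these markers in the differences below was not tested.

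Of the 50 members, 42 passed the filter on low counts. A gene was called at an adjusted p under 0.05 over all 14505 genes tested with edgeR, which is a loose mark in these data because 59.3% of all genes passed it. Among the 42 members, 28 were called, 18 higher and 10 lower in NPS-EMSC, beside 29.7% of all tested genes called higher and 29.5% called lower. A difference of at least 2-fold was reached by 10 called members, 8 higher and 2 lower, beside 14.8% of all tested genes. The median log2 fold change of the 42 was 0.24, beside a median of -0.00479 over all genes tested. In CPM the groups did not overlap in 29 of the 42 members and in 9388 of the 14505 genes tested. A lack of overlap is therefore common in these data and does not set a member apart. The other 8 members had too few reads to be tested, and a gene that is read in 1 group alone enters such a count through that group, so these figures describe the 42 and not the set.

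By level per gene length (FPKM, fragments scaled to gene length and to library size), averaged over the 6 libraries, Atp2a2 stood first at 186 FPKM, followed by Jph2 at 52.0, Camk2d at 34.9, Nfatc4 at 32.3, Camk2g at 21.0, Cacnb3 at 19.2 and Itpr1 at 17.7 FPKM. Those 7 genes give the main pump of the store, its junction protein, the common kinase isoforms, an NFAT factor, a channel subunit and the main release channel of these cells. At the other end, 13 members stood below 0.2 FPKM, among them Atp2a3, Ryr2, Cacnb4, Trpc6 and Cacna1h.

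The pump gene Atp2a2, its inhibitor gene Pln and the buffer gene Casq2 serve the filling of the store. The upstream regions of these 3 genes are shown because all 3 levels were far higher in NPS-EMSC while the regions differ widely in base composition. Each run is the 250 bases before the start site in the RefSeq promoter table of assembly GRCr8, plus strand, 5′ to 3′. The build used for the counts is not given in the sources used here. Capitals mark the CCAAT box (CCAAT), the GC box (GGGCGG or its complement) and the MEF2 site. The listed start site of Pln lies inside the gene's RefSeq span and not at its first base.
Pln, chr20:33172244-33172493: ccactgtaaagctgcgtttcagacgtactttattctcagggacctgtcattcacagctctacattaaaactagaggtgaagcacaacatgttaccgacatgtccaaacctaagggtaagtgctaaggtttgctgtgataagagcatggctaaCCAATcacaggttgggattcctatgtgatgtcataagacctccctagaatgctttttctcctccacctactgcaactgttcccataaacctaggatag
Atp2a2, chr12:39733269-39733518: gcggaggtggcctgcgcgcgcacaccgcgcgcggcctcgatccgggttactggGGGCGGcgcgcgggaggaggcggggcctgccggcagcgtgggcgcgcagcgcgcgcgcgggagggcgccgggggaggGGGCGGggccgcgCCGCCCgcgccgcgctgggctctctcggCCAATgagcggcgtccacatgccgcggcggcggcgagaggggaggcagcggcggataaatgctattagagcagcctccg
Casq2, chr2:192214306-192214555: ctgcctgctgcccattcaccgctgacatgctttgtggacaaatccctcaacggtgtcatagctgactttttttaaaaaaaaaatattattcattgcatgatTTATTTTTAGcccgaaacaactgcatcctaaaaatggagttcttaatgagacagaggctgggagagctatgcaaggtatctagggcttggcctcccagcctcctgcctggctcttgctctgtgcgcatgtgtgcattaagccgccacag

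Pln and Casq2 had upstream regions of 44% and 46.4% G and C with 3 and 5 CpG, while that of Atp2a2 had 80% with 45 CpG. Upstream regions were found for 37 of the 50 members, with a median of 72% G and C, against 60% over 10966 tested genes with an entry. Stac2, Jph1, Sln, Trpc1, Cacna1g, Cacna1h, Cacnb1, Cacnb4, Orai2, Mcu, Nfatc1, Nfatc3 and Nfatc4 were not matched. Of 10 motifs searched on both strands, the MEF2 site was found in Casq2 alone among the 37, from 149 to 140 bases before the start site (-149 to -140), and in 1.47% of the tested genes. The CCAAT box stood in 14 of 37 members, Pln and Atp2a2 included, and in 35.6% of tested genes. The GC box stood in 25 of 37 members, against 57.4% of tested genes. The NFAT core GGAAA was found in 10 of 37 members, Jph2 and Stac among them, against 53.9% of tested genes, and the E-box CANNTG in 22 of 37 against 56.4%. The TEAD site CATTCC was found in Cacna1c alone, against 10.2%. The CArG box, the AP-1 site TGANTCA, the cAMP response element TGACGTCA and the TATA box TATAAA were found in none of the 37 (0), against 1.25%, 4.58%, 2.85% and 6.70% of tested genes. These are matches of letters in a short window, and an NFAT core can lie within other motifs. The shares were not matched for base composition, which differed between members and tested genes (median 72% against 60% G and C). They are therefore not read as a feature of the members.

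Atp2a2 encodes SERCA2, the pump that returns calcium to the store in heart, smooth muscle and most other cells. Its level was 98.5, 95.7 and 98.3 FPKM in the EMSC libraries and 287, 256 and 279 FPKM in the NPS-EMSC libraries. The EMSC libraries lay within a few FPKM of each other and every NPS-EMSC library stood far above them, a log2 fold change of 1.54 (SE 0.05), or 2.90-fold. Atp2a3, the SERCA3 gene, had no reads in EMSC (0) and 1, 2 and 2 reads in NPS-EMSC, so SERCA2 made up the summed level of both. Counts per gene do not separate the splice forms of SERCA2 that muscle and other cells use.

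Pln encodes phospholamban, the small membrane protein that lowers the calcium affinity of SERCA2. It stood at 0.125, 0.156 and 0.0532 FPKM in EMSC, from 12, 15 and 5 reads, and at 14.1, 12.9 and 14.4 FPKM in NPS-EMSC, from 1320, 1204 and 1358 reads. The groups were far apart, with a log2 fold change of 6.74 (SE 0.17). With so few EMSC reads this SE, taken from the test statistic, is too small and does not cover counting error. For each 100 FPKM of Atp2a2 there were 0.127, 0.163 and 0.0541 FPKM of Pln in EMSC and 4.91, 5.02 and 5.15 in NPS-EMSC, so the inhibitor transcript was higher relative to its pump as well, although its FPKM stayed far below that of the pump in every library. Sln, the gene of the related inhibitor sarcolipin, was near the limit of detection, with 1, 4 and 4 reads against 11, 7 and 14.

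Casq2 encodes the calsequestrin of heart and smooth muscle, which binds calcium inside the store, and Casq1 the form of fast skeletal muscle. Casq2 was at 0.365, 0.313 and 0.176 FPKM in EMSC and 12.5, 12.4 and 11.9 FPKM in NPS-EMSC. All 3 NPS-EMSC libraries lay well above EMSC and close together (log2 fold change 5.37, SE 0.15, 41.4-fold). Casq1 was at 0.903, 0.497 and 0.371 FPKM against 1.2, 0.969 and 1.26 FPKM (log2 fold change 0.97, SE 0.33), a small gap that was no longer called without EMSC replicate 3 (0.73) or without NPS-EMSC replicate 3 (0.90). The leading form differed between the groups: Casq1 made up 66.8% ± 5.02 (SD, n = 3) of the calsequestrin FPKM in EMSC and 8.53% ± 1.19 in NPS-EMSC.

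**Figure D1:**
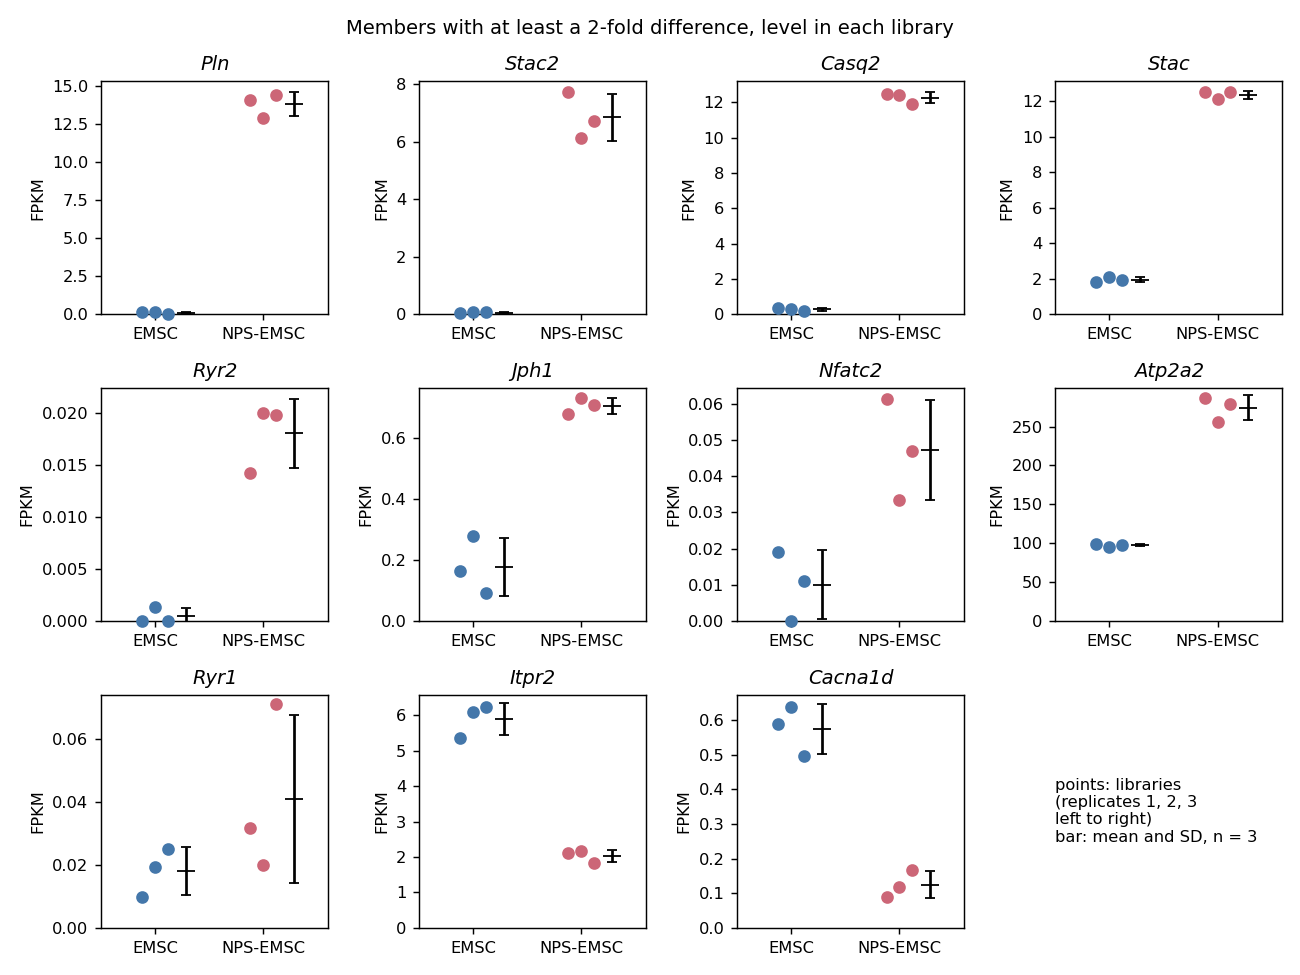
Level in FPKM of the 11 tested members with a fitted difference of at least 2-fold, 1 panel a gene, with 1 point for each library (replicates 1, 2 and 3 from left to right) and a bar for mean and SD. Pln, Stac2 and Casq2 are near 0 in EMSC and between 6.11 and 14.4 FPKM in NPS-EMSC, Itpr2 and Cacna1d are lower in NPS-EMSC, and Ryr1 is the panel in which the groups overlap.

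Junctophilins tie the store to the plasma membrane. Jph2, the form of heart and smooth muscle, was at 40.4, 38.4 and 35.3 FPKM in EMSC and 63.4, 69.1 and 65.2 FPKM in NPS-EMSC. It was the second most abundant member and its groups did not overlap (log2 fold change 0.84, SE 0.05). Jph1, the skeletal muscle form, was at 0.163, 0.278 and 0.0908 FPKM against 0.679, 0.731 and 0.706 FPKM. The EMSC libraries were scattered and the NPS-EMSC libraries tight, with a log2 fold change of 2.0 (SE 0.28). Jph1 stayed at about a hundredth of the Jph2 level, 1.06% ± 0.0121 (SD, n = 3) of the junctophilin FPKM in NPS-EMSC and 0.460% ± 0.237 in EMSC.

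Of the 6 channels that let calcium out of the store, 1 was called higher (Ryr2), 3 lower and 2 were not called. The share called was 66.7%, beside 59.3% of all genes. IP3 receptors open on IP3 made by phospholipase C, and ryanodine receptors open on calcium itself or through coupling to voltage-gated channels. Itpr1, the most abundant of the 6, was at 16.3, 18.5 and 17.5 FPKM in EMSC and 18.6, 16.5 and 18.6 FPKM in NPS-EMSC. Its groups overlapped, with a log2 fold change of 0.08 (SE 0.06) that was not called, or 0.14 and called without NPS-EMSC replicate 2. Itpr2 was at 5.37, 6.10 and 6.22 FPKM against 2.10, 2.16 and 1.84 FPKM. Each NPS-EMSC library had less than the lowest EMSC library (log2 fold change -1.49, SE 0.07, 2.81-fold lower). Itpr3 was lower too, with a mean of 70.2 ± 7.67 against 50.3 ± 0.960 CPM (SD, n = 3) and a log2 fold change of -0.48. Summed over the family, the level was 31.4 ± 2.03 FPKM in EMSC and 25.6 ± 1.17 FPKM in NPS-EMSC, and the share of Itpr1 went from 55.5% ± 0.667 to 70.0% ± 1.58.

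Ryr3, the ryanodine receptor with the widest distribution outside striated muscle, made up 99.3% ± 0.232 (SD, n = 3) of the ryanodine receptor FPKM in EMSC and 97.2% ± 1.11 in NPS-EMSC. It was at 2.28, 2.95 and 2.78 FPKM against 2.12, 1.78 and 2.14 FPKM, so that the highest NPS-EMSC library lay just under the lowest EMSC library (log2 fold change -0.36, SE 0.10). Ryr2, the cardiac receptor, had 0, 1 and 0 reads in EMSC and 10, 14 and 14 in NPS-EMSC, a ratio of 39.8 with a 95% counting interval of 6.73 to 1614. Its level there was at most 0.0200 FPKM, about a hundredth of that of Ryr3. Ryr1, the skeletal muscle receptor, had 6, 12 and 15 reads against 19, 12 and 43, with overlapping groups. Its log2 fold change of 1.09 (SE 0.53) was not called, and ranged from 0.49 without NPS-EMSC replicate 3 to 1.40 without NPS-EMSC replicate 2, where it was called.

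STAC proteins bind voltage-gated calcium channels, and Stac3 is the form that skeletal muscle needs for coupling. Stac was at 1.80, 2.08 and 1.94 FPKM in EMSC and 12.5, 12.1 and 12.5 FPKM in NPS-EMSC. Both groups were tight and the log2 fold change was 2.70 (SE 0.09). Stac2 was at 0.0310, 0.0695 and 0.0712 FPKM, from 4, 9 and 9 reads, against 7.72, 6.11 and 6.70 FPKM, from 972, 768 and 852 reads (log2 fold change 6.60, SE 0.20). As for Pln, the SE of Stac2 is too small for so few EMSC reads. Stac3 stayed at 1 to 6 reads in every library and was not tested. The family sum went from 2.06 ± 0.147 to 19.3 ± 1.02 FPKM (SD, n = 3), and the share of Stac2 in it from 2.74% ± 0.986 to 35.4% ± 2.36.

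Of the 5 tested genes for voltage-gated pores, 2 were called lower, none higher (0) and 3 were not called. The share called was 40%, beside 59.3% of all genes. Cacna1g, the pore of a T-type channel that opens near rest, was the leading pore gene at 15, 15.3 and 16.3 FPKM in EMSC and 9.18, 8.17 and 8.78 FPKM in NPS-EMSC. The NPS-EMSC libraries were all lower (log2 fold change -0.79, SE 0.05). Cacna1c, the L-type pore of heart and smooth muscle, was at 4.13, 4.51 and 4.69 FPKM against 4.60, 4.15 and 4.31 FPKM, with overlapping groups and a log2 fold change of 0.01 (SE 0.07). Cacna1d, the L-type pore of pacemaker and endocrine cells, was at 0.588, 0.637 and 0.496 FPKM against 0.0892, 0.118 and 0.166 FPKM (log2 fold change -2.12, SE 0.23). It was the member with the largest decrease. Cacna1a and Cacna1b, pores of synaptic channels, were under 0.6 FPKM in all libraries and not called (log2 fold changes -0.12 and -0.46), and Cacna1h, another T-type pore, had 1 to 17 reads in a library and was not tested. The summed pore level was 21.1 ± 0.930 FPKM in EMSC and 13.7 ± 0.725 FPKM in NPS-EMSC (SD, n = 3). For each 100 FPKM of Cacna1c there were 43.7 ± 2.38 FPKM of Stac in EMSC and 285 ± 10.2 in NPS-EMSC, and 0.75, 1.54 and 1.52 FPKM of Stac2 in the EMSC libraries against 168, 147 and 155 in the NPS-EMSC libraries.

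Auxiliary subunits carry the pores to the membrane and set their gating. Cacnb3, the leading β subunit, was at 19.5, 16.1 and 18.2 FPKM in EMSC and 20.2, 20.8 and 20.4 FPKM in NPS-EMSC. The gap between the groups was narrow (log2 fold change 0.24, SE 0.06). Cacna2d1, the leading α2δ subunit, was at 9.18, 11 and 10.1 FPKM against 15.6, 13 and 12.8 FPKM, without overlap (log2 fold change 0.49, SE 0.08). Cacnb2 was called higher with a log2 fold change of 0.30, and was not called without EMSC replicate 1 (0.25), EMSC replicate 2 (0.29) or NPS-EMSC replicate 1 (0.21). Cacnb1 and Cacna2d2 had log2 fold changes of 0.26 and -0.15 and were not called. Cacnb4 and Cacna2d3 had 2 to 24 reads in a library and were not tested.

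**Figure D2:**
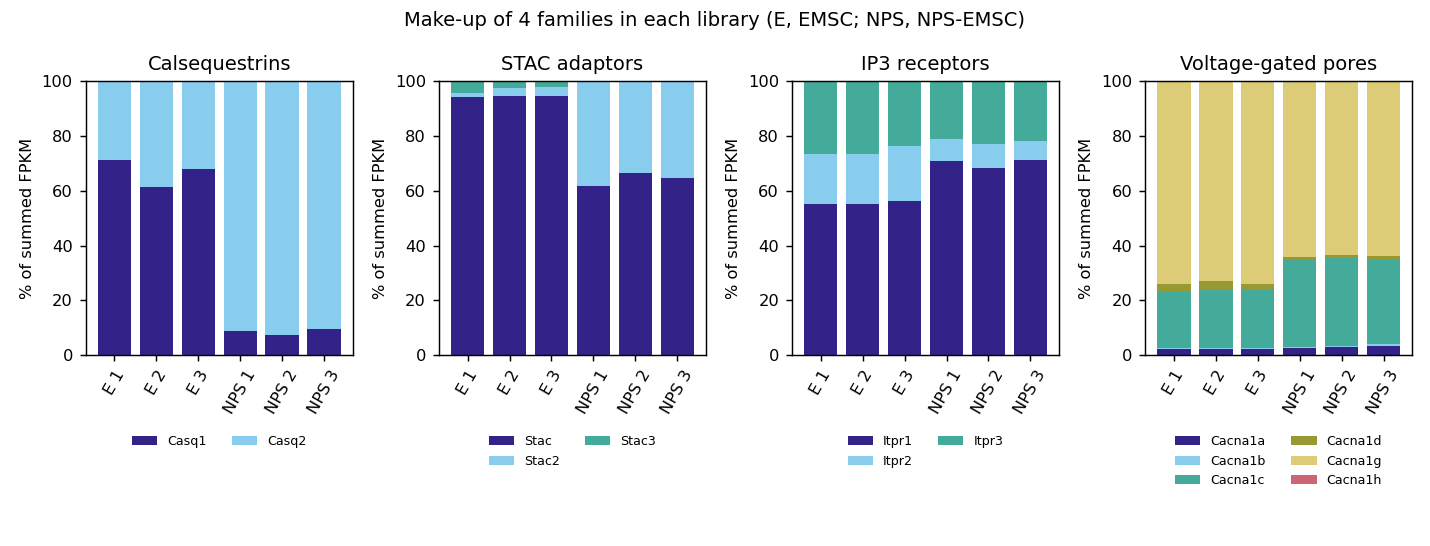
Share of each paralog in the summed FPKM of its family, in percent, 1 bar a library, for calsequestrins, STAC adaptors, IP3 receptors and voltage-gated pores. Casq2 takes over from Casq1, Stac2 goes from 2.74% to 35.4% of the STAC sum, and Itpr2 and Cacna1g lose share while Itpr1 and Cacna1c gain it.

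Store-operated entry couples an empty store to the plasma membrane, with STIM proteins as sensors in the store membrane and ORAI proteins as pores. Both sensors were lower in NPS-EMSC. Stim1 was at 12.6, 13.5 and 13.6 FPKM in EMSC and 8.43, 9.19 and 9.34 FPKM in NPS-EMSC (log2 fold change -0.51, SE 0.07), and Stim2, which responds to smaller losses from the store, had a mean of 6.71 ± 0.256 FPKM in EMSC and a log2 fold change of -0.95 (SE 0.07). In neither gene did the groups overlap, which also held for 9388 of 14505 tested genes. Among the pores Orai2 was higher, at 2.37, 2.64 and 2.47 FPKM against 3.24, 3.52 and 3.61 FPKM (log2 fold change 0.51, SE 0.11). Orai1 and Orai3 overlapped between the groups and were not called, with log2 fold changes of -0.12 and 0.20. The summed STIM level was 19.9 ± 0.608 FPKM against 12.3 ± 0.794 FPKM, and the summed ORAI level 14.7 ± 0.712 against 16 ± 1.30 FPKM (SD, n = 3).

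TRPC channels open downstream of phospholipase C and pass several cations. Trpc1 was at 1.53, 1.64 and 1.73 FPKM in EMSC and 0.849, 0.788 and 0.868 FPKM in NPS-EMSC, lower in all 3 NPS-EMSC libraries (log2 fold change -0.92, SE 0.12). Trpc4 and Trpc6 were read only in NPS-EMSC. Trpc4 had 27, 21 and 10 reads, at least 20.3-fold more than a floor of 3 counts over the EMSC group, and Trpc6 had 3, 5 and 5 reads, at least 4.54-fold more on the same basis. Neither passed the filter. Intervals here cover counting error alone, and floors cover that of the EMSC count only, with the NPS-EMSC count taken as exact.

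At the plasma membrane, calcium is removed by the PMCA pumps and the sodium-calcium exchanger. Atp2b1, the leading PMCA gene, had overlapping groups at 13.9 ± 0.992 FPKM in EMSC and a log2 fold change of -0.03 (SE 0.06). Atp2b4 was at 2, 1.94 and 2 FPKM in EMSC and 2.20, 2.43 and 2.51 FPKM in NPS-EMSC (log2 fold change 0.31, SE 0.09), a call that was lost on the log2(FPKM + 1) scale (0.18). Slc8a1, the exchanger of heart and smooth muscle, was at 3.46, 3.46 and 3.33 FPKM against 2.79, 2.82 and 2.69 FPKM, a small difference with tight groups (log2 fold change -0.26, SE 0.05). Mcu, the pore of calcium uptake by mitochondria, was at 7.73, 7.86 and 8.10 FPKM against 8.99, 9.50 and 9.38 FPKM (log2 fold change 0.28, SE 0.07). None of these 4 genes approached the size of the difference in Atp2a2.

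Calmodulin-dependent kinase II phosphorylates phospholamban and several channels. Camk2d, its main form here, was at 30.6, 32.7 and 31.7 FPKM in EMSC and 39.8, 37.2 and 37.4 FPKM in NPS-EMSC (log2 fold change 0.31, SE 0.05). Camk2g was at 16.1, 15.7 and 16.1 FPKM against 25.2, 26 and 26.7 FPKM (log2 fold change 0.75, SE 0.05). Both were higher in every NPS-EMSC library, and together they held nearly all of the family's FPKM. The forms best known from neurons, Camk2a and Camk2b, were under 0.9 FPKM and not called, although Camk2a was called higher without EMSC replicate 2 (0.59).

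NFAT factors enter the nucleus when calcineurin, a phosphatase that calcium and calmodulin switch on, removes their phosphates. Nfatc4 was at 34.1, 31.2 and 30.7 FPKM in EMSC and 31.3, 33.7 and 32.7 FPKM in NPS-EMSC, overlapping and not called (log2 fold change 0.07, SE 0.05). Nfatc3 was lower, at 14.1, 14.2 and 16.2 FPKM against 11.8, 11.4 and 11.6 FPKM (log2 fold change -0.31, SE 0.06). Nfatc1 had a log2 fold change of 0.24 that was not called, or 0.33 and called without EMSC replicate 1. Nfatc2 was called higher on 7, 0 and 4 reads against 22, 12 and 17 (log2 fold change 1.80, SE 0.61), and was not called without EMSC replicate 2 (1.40) or NPS-EMSC replicate 1 (1.59).

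**Figure D3:**
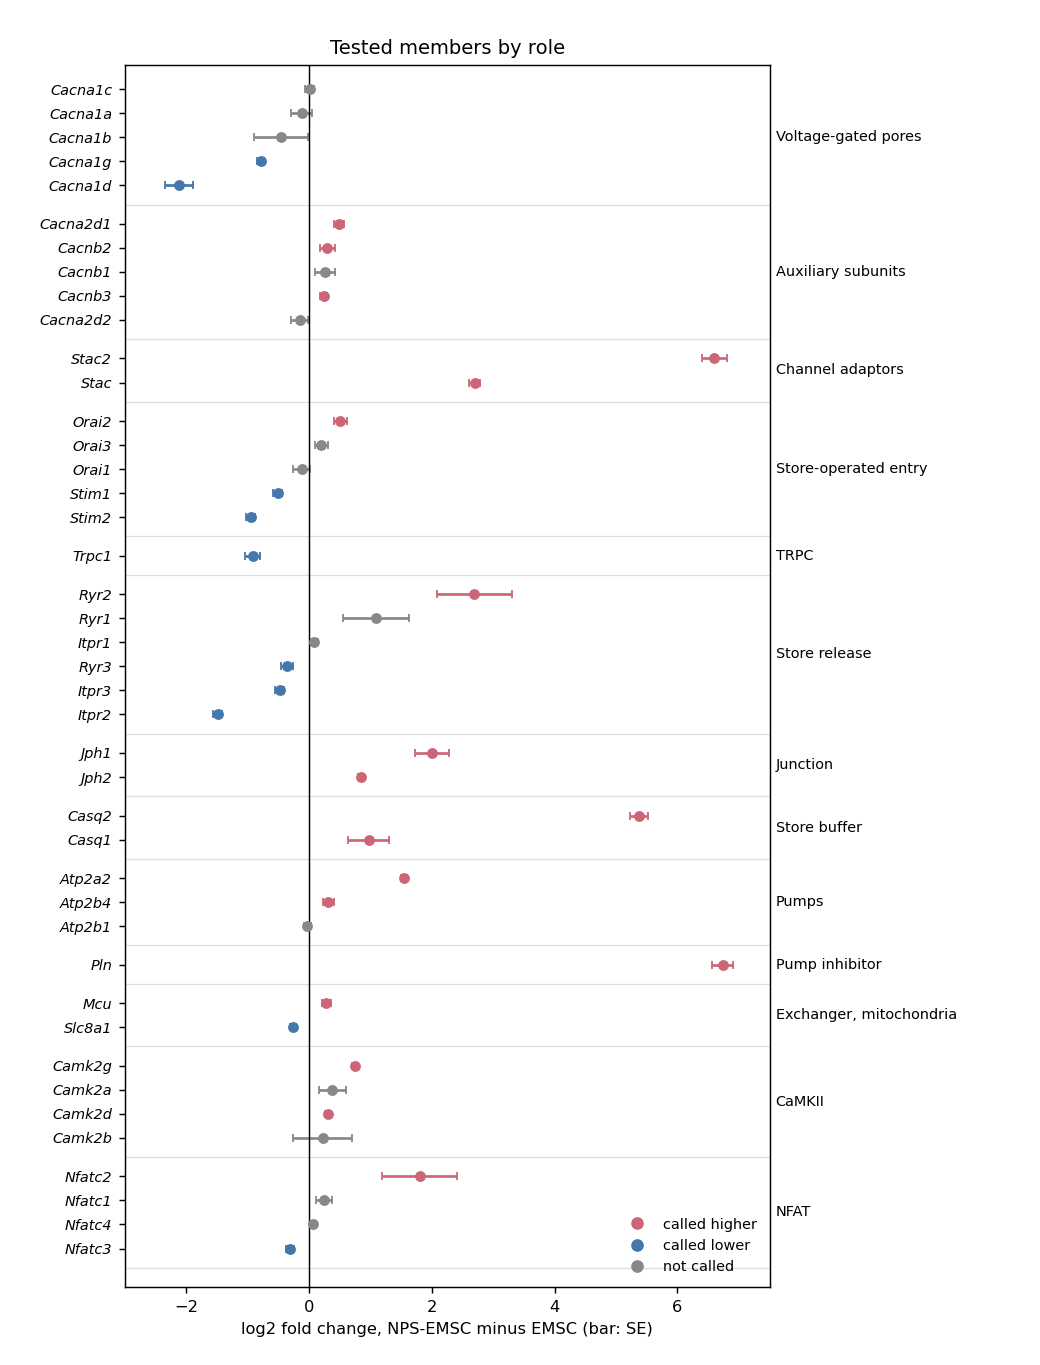
Log2 fold change, NPS-EMSC minus EMSC, of the 42 tested members, grouped by role, with bars for SE. The bars can be too short for genes with few reads in either group. Red points were called higher, blue lower and grey not called. The store genes Pln, Casq2 and Atp2a2 and the adaptors Stac and Stac2 lie to the right, Itpr1 and Cacna1c lie close to 0, and Cacna1d, Itpr2 and both store sensors lie to the left.

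A wider list of 150 calcium-handling genes outside the set was tested to see how the rest of the machinery stood. Of these, 135 had a row and 105 passed the filter. A gene read almost only in a single group passes it through that group, so the counts below describe the tested genes and not the lists. In edgeR's quasi-likelihood test 38 rose, 31 fell and 36 did not pass, or 65.7% called beside 59.3% of all genes, and the median log2 fold change was -0.04. Values below in CPM are means ± SD of 3 libraries in each group.

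In the list of further channel subunits and RGK proteins, small GTP-binding proteins that bind the β subunit and reduce channel current, 4 of 7 tested genes rose and none fell (0), or 57.1% called beside 59.3% of all genes, and the 4 were the RGK genes. Rrad had 426, 397 and 443 reads in EMSC and 3202, 3228 and 3244 in NPS-EMSC, a tight pair of groups far from each other (log2 fold change 3.0, SE 0.07, adjusted p = 5.52e-22). Rem1 had 12, 7 and 24 reads against 175, 139 and 148 (log2 fold change 3.32, SE 0.33, adjusted p = 3.84e-09). Rem2 and Gem, named after their values were seen, rose by 2.13 (adjusted p = 2.57e-04) and 0.44 (adjusted p = 0.0458). The groups of Gem overlapped, and it was not called in 9 of the alternatives, among them the fits without EMSC replicate 1 (0.40), EMSC replicate 2 (0.31) or NPS-EMSC replicate 1 (0.23). Cacna1i, Cacna2d4 and Cacng7 did not pass.

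Of 17 tested genes of the store lumen and of release, 11 rose, 1 fell and 5 did not pass. The share called was 70.6%, beside 59.3% of all genes. Irag1, which encodes the IP3 receptor partner through which cGMP-dependent kinase limits calcium release, rose by 1.39 on the log2 scale, from 121 ± 4.76 CPM to 317 ± 18.2 CPM (SE 0.05, adjusted p = 4.70e-18). Rcn2, reticulocalbin of the endoplasmic reticulum, rose by 1.23 on the log2 scale, from 165 ± 3.2 CPM to 386 ± 4.98 CPM (adjusted p = 4.15e-18). Asph, whose transcripts encode both a hydroxylase and the junctional protein junctin, fell by 0.35 on the log2 scale, from 268 ± 13.6 CPM to 210 ± 11.2 CPM (adjusted p = 1.05e-06). Trdn, the gene of triadin, which anchors calsequestrin at the ryanodine receptor, was picked out after its values were seen: it had 0, 0 and 1 reads in EMSC and 109, 119 and 118 in NPS-EMSC, a ratio of 363 (95% counting interval 64.7 to 14369, adjusted p = 2.99e-11). Trdn passed the count filter through NPS-EMSC alone, so its adjusted p adds no support beyond those reads. Among abundant chaperones and buffers of the lumen, looked at afterwards, Rcn3 and Calu rose by 0.25 and 0.15 (adjusted p = 3.03e-05 and 0.0102). Calu was not called without EMSC replicate 3 (0.12) or NPS-EMSC replicate 3 (0.14). Calr and Canx had log2 fold changes of 0.05 and -0.10 and did not pass (adjusted p = 0.337 and 0.0715), although Canx was called lower without EMSC replicate 1 (-0.13).

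Calcium-binding proteins of the cytosol changed in both directions, with 2 of 10 tested genes higher, 6 lower and 2 not passing. Called were 80%, beside 59.3% of all genes. The 2 that rose encode calbindins, buffers known as vitamin D targets in intestine and kidney. S100g, calbindin-D9k, had 0, 1 and 1 reads in EMSC and 194, 99 and 251 in NPS-EMSC, a ratio of 285 (95% counting interval 78.6 to 2361, adjusted p = 1.81e-11). Calb1, calbindin-D28k, had none in EMSC (0 reads) and 66, 55 and 59 reads in NPS-EMSC. That is at least 62.9-fold more than a floor of 3 counts over the EMSC group (adjusted p = 2.48e-08). Both genes passed the count filter through NPS-EMSC alone, so their adjusted p-values add no support beyond the reads themselves. Calb2, Pvalb and Ocm, on the same list, had too few reads to be tested. Of the S100 genes, S100a4 fell from 788 ± 32.7 CPM to 349 ± 4.90 CPM (-1.18 on the log2 scale, adjusted p = 2.55e-17) and S100a10, the annexin A2 partner, from 292 ± 14.0 CPM to 119 ± 2.94 CPM (-1.29 on the log2 scale, adjusted p = 7.65e-18). S100a11, named afterwards, was at 396 ± 11.5 against 424 ± 16.1 CPM and did not pass (adjusted p = 0.0650), but was called higher without EMSC replicate 1 (0.11) or NPS-EMSC replicate 1 (0.13). S100b, on the Schwann cell list as well, was also among those that fell.

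Of 28 tested genes around calmodulin and calcineurin, 9 rose, 13 fell and 6 did not pass. Called were 78.6%, beside 59.3% of all genes. Rcan1, which encodes an inhibitor of calcineurin and is itself a known NFAT target, had 3109, 2683 and 2469 reads in EMSC and 19819, 19390 and 20121 in NPS-EMSC. The groups were far apart, with a log2 fold change of 2.91 (SE 0.06, adjusted p = 4.31e-21). Named after their values were seen, the catalytic subunit genes of calcineurin fell on the log2 scale, with changes of -0.54 for Ppp3ca, -0.22 for Ppp3cb and -0.63 for Ppp3cc (adjusted p = 1.38e-09, 0.00102 and 1.22e-07). Mylk, the calmodulin-dependent kinase that starts smooth muscle contraction, rose by 1.04 on the log2 scale, from 131 ± 3.83 CPM to 269 ± 17.6 CPM (adjusted p = 2.18e-15). Ncald, a neuronal calcium sensor gene, fell by 2.32 on the log2 scale (adjusted p = 2.84e-10). Calm3, a calmodulin gene, fell by 0.58 (adjusted p = 9.10e-10), while Calm2, named afterwards and near-identical to it in its coding part, rose by 0.28 (adjusted p = 3.24e-06).

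Among 19 tested TRP, Piezo, P2X and two-pore channel genes, 5 rose, 5 fell and 9 did not pass, or 52.6% called beside 59.3% of all genes. Trpv2 rose by 2.52 on the log2 scale, from 3.41 ± 0.676 CPM to 19.9 ± 1.14 CPM (SE 0.14, adjusted p = 2.40e-14), and the ATP-gated channel gene P2rx4 from 36.2 ± 0.573 CPM to 72.8 ± 3.24 CPM (adjusted p = 9.50e-14). Trpm3 fell by 1.80 on the log2 scale, from 56.3 ± 5.69 CPM to 16.2 ± 1.12 CPM (SE 0.08, adjusted p = 7.14e-16), and the mechanosensitive channel gene Piezo1 from 244 ± 6.17 CPM to 177 ± 6.31 CPM (adjusted p = 2.56e-09). Of 8 tested genes of other pumps and exchangers, 4 fell and none rose (0). The share called was 50%, beside 59.3% of all genes, of which 29.5% were called lower. Atp2c1, the pump of the Golgi, fell by 0.65 on the log2 scale (adjusted p = 2.61e-11), and Slc24a3, a potassium-dependent sodium-calcium exchanger, by 0.74 (adjusted p = 1.96e-09). Atp2a1, the SERCA1 gene of fast skeletal muscle, looked at afterwards, was at 2.18 ± 0.190 and 1.78 ± 0.211 CPM and did not pass (adjusted p = 0.372). Of 10 mitochondrial genes 4 rose, 2 fell and 4 did not pass, or 60% called beside 59.3% of all genes, with none reaching 2-fold. Micu2, a regulator of the uniporter, fell by 0.37 on the log2 scale (adjusted p = 3.08e-06). Of the channels of the outer mitochondrial membrane, Vdac1 rose by 0.38 while Vdac2 fell by 0.21 (adjusted p = 9.07e-08 and 3.57e-04). Of 6 genes that modulate store-operated entry or leak, 3 rose and none fell (0), led by Grina, at 0.59 (adjusted p = 2.20e-08), and Tmco1, at 0.34 (adjusted p = 1.30e-05). Called in that list were 50%, beside 59.3% of all genes.

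**Figure D4:**
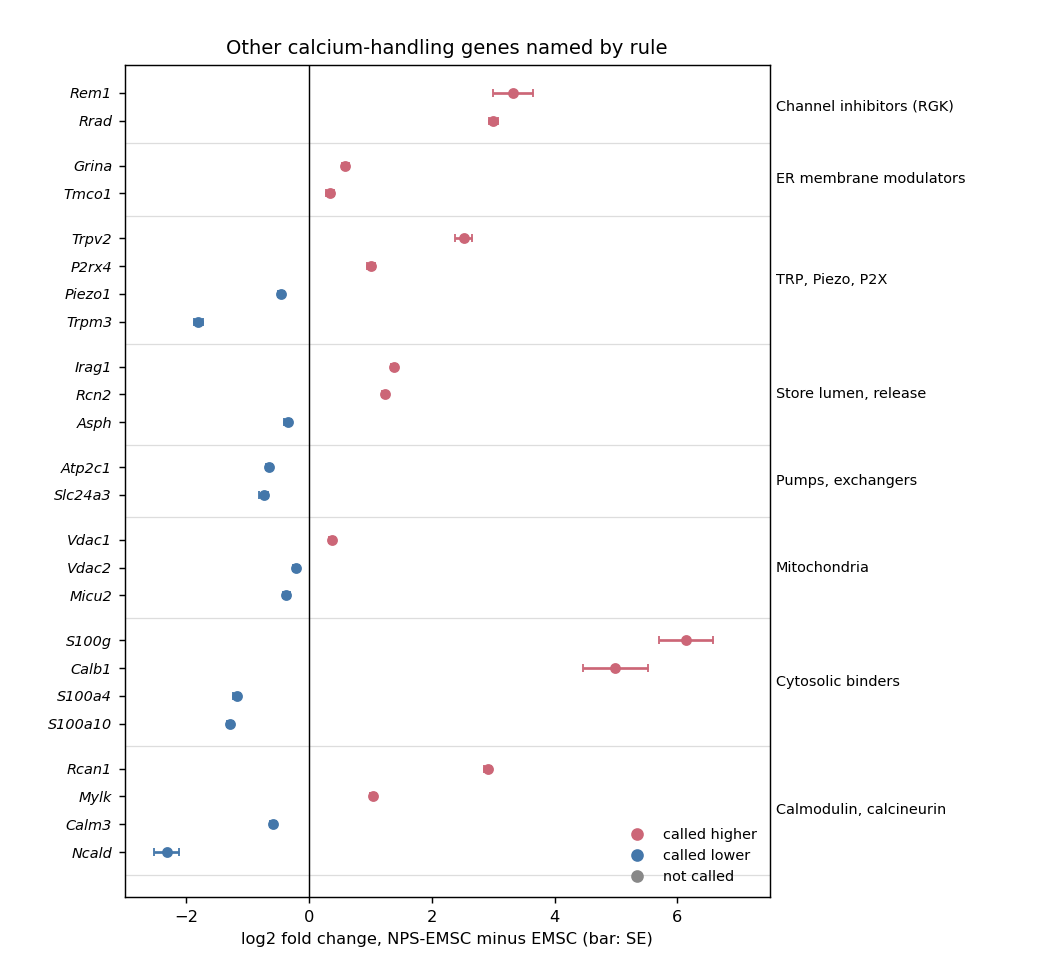
Log2 fold change, NPS-EMSC minus EMSC, of 24 genes named by rule from the wider list, grouped by role, with bars for SE. The bars can be too short for genes with few reads in either group. Red points were called higher and blue lower. Rrad, Rem1, Trpv2, S100g, Calb1 and Rcan1 lie above 2, and the 2 pump and exchanger genes lie below 0.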

How the data were processed

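The authors deposited whole-number read counts per gene and an FPKM table of the same 20653 genes. The submitters' processing notes list HISAT2, StringTie, HTSeq, fastp, DESeq and R 3.2.0 without saying what each did. The genome build, annotation and strand setting were not given in the sources used here. Deposited counts over FPKM gave 1 fixed length for each of 20653 genes (within 0.1%), so the 2 tables are 1 measurement. FPKM was used for levels and shares, and CPM are counts over the TMM-scaled total.

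Counts were tested with edgeR 4.0.16 in R 4.3.3 (quasi-likelihood F test, TMM, filterByExpr with minimum count 10 and minimum total 15), Benjamini-Hochberg adjusted over 14505 genes. Log2 fold changes use a prior count of 2, which pulls genes with few reads towards 0. SE is the absolute log2 fold change over the square root of F, and F does not use the prior count. This SE can therefore fall below counting error where a group has few reads, as for Pln and Stac2 in EMSC. The 6 libraries showed no pairing by number (correlations of deviations -0.0389, 0.0460 and 0.0356), and replicates differed beyond sampling noise. Untested genes held at most 0.0393% of reads. The test was checked on simulated counts.

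Members and lists were chosen with earlier results of these data known. Named were members with a log2 fold change of at least 1 in size or the highest FPKM of their role, and up to 2 risen and 2 fallen genes of each wider role by smallest p, of which 1 is not reported here. Alternatives were DESeq2 1.42.0, upper-quartile or RLE factors, limma 3.58.1 (voom, and log2(FPKM + 1) or log2(FPKM + 0.1) with and without a filter of 0.5 FPKM in 3 libraries), 2 other count filters, a stricter adjusted p of 0.01, a replicate block, and the omission of each library in turn.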

Additional observations from a re-analysis of the deposited data

How the results depend on the processing

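Over 17 alternatives the number of members called higher was 14 to 21 and lower 9 to 10, and of wider-list genes 30 to 38 higher and 27 to 34 lower, all within 1.5 times the main counts. With the replicate number as a replicate block, 18 members were higher and 10 lower. No wider-list gene named by rule lost its call or changed direction in any alternative that adjusted at 0.05, and no called member changed direction. Among the wider-list genes named after their values were seen, Gem and Calu lost their calls in 9 and 5 alternatives (Gem 0.41 with upper-quartile factors and 0.45 with DESeq2, Calu 0.10 on log2(FPKM + 1)), and Canx and S100a11, not called, were called in 6 and 3. The calls on Cacnb2, Cacnb3, Atp2b4 and Ryr2 were lost on 1 or more FPKM scales. Such scales compress low levels. On log2(FPKM + 1) without a filter Ryr2 had 0.03 and Cacnb3 0.19. With the filter Cacnb3 had the same 0.19 and was called. On the FPKM scales the log2 fold changes of Pln and Stac2 were as low as 3.73 and 2.89. Genes with under about 20 reads in a group are limited by depth, and for them a missed call says little. The cause of the lost calls was not tested.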
